A study of Drosophila melanogaster with 3 samples.

Results

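The 828 unnamed loci shorter than 400 bp were the rows of the deposited expression table that carried no gene name and spanned under 400 bp, counted from start to end inclusive. They made up 5.44% of the table's 15229 rows and 46.8% of its 1769 unnamed rows. The other 941 unnamed rows were longer, and 13460 rows carried a gene name. The rule used the name and the span of a row and no expression value. Each locus is given here by its position in the table (build dm3), and the shortest spanned 22 bp and the median one 263 bp.

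RNA was measured in brains of late (3rd instar) Drosophila melanogaster larvae raised at 25 °C, in 3 libraries with 1 library for each genotype. The single mutant was dBRWD3PX2/PX2, homozygous for an allele of the BRWD3 gene. The double mutant was homozygous for the same allele and for the yem allele GS21861 (dBRWD3PX2/PX2, yemGS21861/GS21861). The control was the heterozygote dBRWD3PX2/+, so all 3 genotypes carried at least 1 copy of PX2 and none was wild type for dBRWD3. The lesions behind both alleles and the number of brains per library were not given in the sources used here. With 1 library per genotype no spread between replicates could be measured, so no test was run and every difference below is one between libraries.

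Transcript assembly from sequencing reads reports a locus wherever enough reads pile up, also where the annotation holds no gene. Such short pieces can be parts of longer unannotated transcripts, small stable RNAs, or traces of introns and intergenic transcription, all of which remain in RNA depleted of ribosomal RNA and not selected for a poly(A) tail. BRWD3 is a WD-repeat and bromodomain protein of chromatin, and yemanuclein, the product of yem, works with HIRA to deposit the histone variant H3.3. H3.3 is laid down outside DNA replication, along transcribed genes and also in heterochromatin.

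The deposited unit was RPKM, reads scaled to transcript length and library size. At these lengths 1 read was worth very different RPKM values, and the values of the loci fell on steps that gave the reads back. The step at each span equalled 1 read over an effective length computed from a fragment length of 200 ± 80 bases (mean ± SD of the assumed distribution, not of replicates). With that step, 97.1% of the 681 values above 0 in the single mutant were whole numbers within 0.02, as were 96.8% of the 688 in the double mutant and 97.5% of the 796 in control. The steps corresponded to totals of 2.37e+07 reads in the single mutant, 3.31e+07 in the double mutant and 3.34e+07 in control. At a span of 23 bp 1 read was worth 17208 RPKM in the single mutant, 12311 in the double mutant and 5073 in control. At 300 bp it was worth 0.416, 0.298 and 0.295 RPKM in the same libraries. The RPKM of one locus could therefore not be ranked against that of another without the reads behind it, and both are given below. No value of either mutant was written with more than 6 digits, whereas 391 of the 796 in control were, 389 of them ending in 5. How many estimates stand behind the control column was not given in the sources used here, so a control read below is 1 step of that column.

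**Figure D1:**
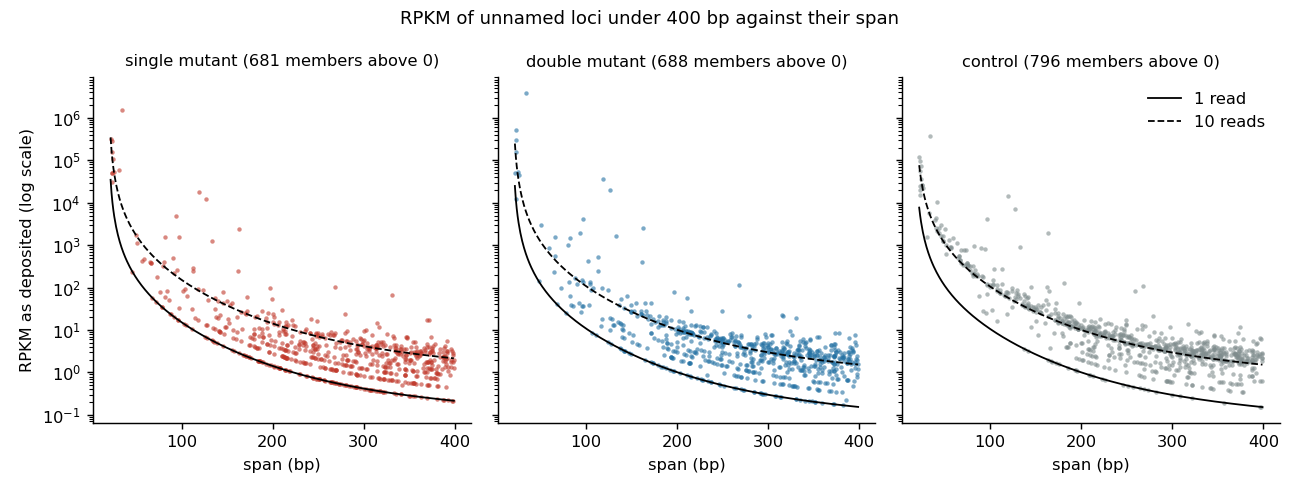
Deposited RPKM (log scale) of each locus above 0 against its span in bp, in the single mutant, double mutant and control libraries. The solid line marks the RPKM of 1 read and the dashed line that of 10 reads. The points lie on discrete bands above the 1-read line, and in control most lie near or above the 10-read line, with 569 of the 828 loci at 10 reads or more.

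Most of these loci rested on few reads. The median locus had 3 reads in the single mutant, 6 in the double mutant and 11 in control, at median values of 2.04, 2.46 and 3.98 RPKM. All 828 passed a minimum of 1 RPKM in at least 1 library. In the library where a locus was highest by reads, the median was 13 reads, and 699 loci (84.4%) had under 20 there. The number of loci jumped at 10 reads, since the single mutant had 17 values at 9 reads and 38 at 10. The double mutant had 14 and 67 such values, and control 14 and 117. All but 2 of the 828 loci reached 10 reads in at least 1 library, and those 2 peaked just under it, the lower at 8.84.

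Which library reached 10 reads differed between loci. It was the single mutant alone for 60 loci (7.25%), the double mutant alone for 163 (19.7%) and control alone for 386 (46.6%). The single and double mutant both reached it at 34 loci, the single mutant and control at 32, the double mutant and control at 79, and all 3 libraries at 72 (8.70%). In all, 198 loci (23.9%) had 10 reads or more in the single mutant, 348 (42.0%) in the double mutant and 569 (68.7%) in control. These counts were not scaled to the totals of 2.37e+07, 3.31e+07 and 3.34e+07 reads, so 10 reads asked for the highest RPM in the single mutant. The 72 loci with 10 reads in each library had medians of 16 reads in the single mutant, 23 in the double mutant and 21.5 in control, at 6.74, 6.71 and 6.46 RPKM.

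**Figure D2:**
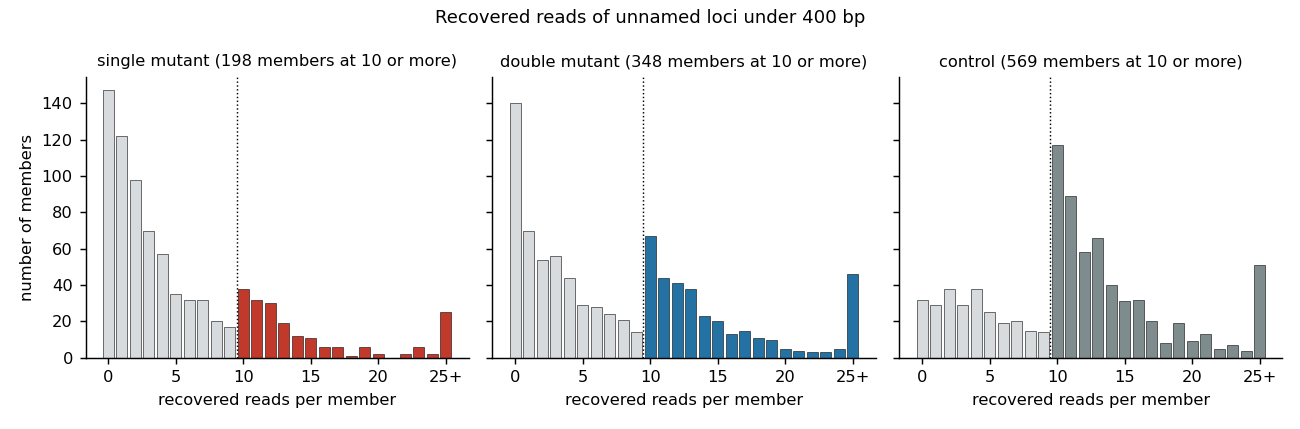
Number of loci at each recovered read number in the single mutant, double mutant and control libraries. Bars at 10 reads or more are coloured, the last bar holds 25 reads or more, and the dotted line marks the step up at 10, which is highest in control (117 loci at exactly 10 reads).

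A few loci carried much of the RNA. The 828 loci summed to 12156 reads in the single mutant, 25884 in the double mutant and 16294 in control, or 514, 782 and 489 RPM (reads scaled to a library of 1000000 reads). The 4 deepest loci held 54.1% of these reads in the single mutant, 68.0% in the double mutant and 35.1% in control. Without them the other 824 loci summed to 236 RPM in the single mutant, 251 in the double mutant and 317 in control, so the library with the highest sum changed from the double mutant to control.

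The 4 deepest loci lay on 3R and X, and all 4 had their highest number of reads in the double mutant. The deepest by summed reads, chr3R:26074306-26074424 (119 bp, 890 bp from CG34299), had 17964 RPKM in the single mutant, 36358 in the double mutant and 14514 in control, from 2142, 6061 and 2475 reads. Its double mutant RPM was 2.47-fold that of control (95% exact counting interval 2.36 to 2.59), while the single mutant was 1.22-fold (1.15 to 1.29). These intervals, like all those below, cover counting error only. The 127 bp locus chr3R:18222220-18222346, 2394 bp from CG7059, had 1853, 4112 and 1554 reads in the single mutant, the double mutant and control. Its ratio to control was 1.68 in the single mutant (1.57 to 1.80) and 2.67 in the double mutant (2.52 to 2.83). The fourth, chr3R:15616688-15616850, lay 2946 bp from bnl, the gene of the fibroblast growth factor branchless. It differed least, with 835 reads in the single mutant, 1259 in the double mutant and 944 in control.

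The locus with the highest RPKM of all was chrX:19880351-19880384, only 34 bp long and 14615 bp from CG17003. It was listed at 1544550 RPKM in the single mutant, 3901300 in the double mutant and 375640 in control, and the reads behind these values were 1745, 6159 and 747. Its RPM was 3.29-fold that of control in the single mutant (3.02 to 3.59) and 8.31-fold in the double mutant (7.70 to 8.98). The double mutant was in turn 2.53-fold the single mutant (2.39 to 2.66). The RPKM ratios were larger than the read ratios because the effective length at this span, where fragments hardly fit, differed between the control column and the mutant columns. The shortest fragment that gave whole reads was 18 bases in control and 20 in both mutants. For the 26 loci under 50 bp this made the RPKM given to an equal RPM 1.11 to 3.21 times as large in a mutant as in control, against at most 1.004 times at spans of 200 bp or more.

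The 7 next highest mean values by RPKM were all at spans of 22 to 26 bp, where a handful of reads gave very large RPKM values. chr3L:10402710-10402732 had 154865 RPKM in the single mutant, 517065 in the double mutant and 96393 in control, from 9, 42 and 19 reads. chr3R:2155603-2155625, 346 bp from Osi18, was highest in the single mutant, with 17 reads there, 1 in the double mutant and 3 in control. chr3L:12566856-12566878 was highest in the double mutant, with 3, 25 and 5 reads in the single mutant, the double mutant and control. The second of these 3 was thus high in the single mutant and the other 2 in the double mutant. chrX:18033772-18033793 (22 bp) was listed at 312673 RPKM in the single mutant, against 122933 RPKM in control, but had only 9 reads there against 16, so the direction by RPKM was opposite to that by reads. This held for 3 of the 11 loci under 50 bp that were above 0 in the single mutant and in control, and for none of the longer loci in any comparison. At chr2L:15333789-15333813, 50 bp from esg, which encodes a Snail-type zinc finger factor of stem cells, the reads were 16, 11 and 10, and the RPM ratio of single mutant to control was 2.25. chr2L:14464902-14464924 had 3, 13 and 4 reads, and chrX:6302597-6302622 had 11, 13 and 11.

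In the comparison of the single mutant with control, more loci were lower than higher in the single mutant. On the scale log2(RPKM + 1), 124 of the 828 loci (15%) were at least 2-fold higher, beside 3.88% of all 11475 rows that passed the 1 RPKM minimum. Another 372 (44.9%) were at least 2-fold lower, beside 7.05% of all rows. The median log2 ratio was -0.76, against 0.02 over all rows. Among the 919 longer unnamed rows that passed, 58 were higher and 85 lower, with a median of -0.11, and among 88 named rows under 400 bp 18 were higher and 15 lower. Of the 372 lower loci, 354 (95.2%) had 10 reads or more in control, and their medians were 1 read in the single mutant and 12 in control. The 386 loci that reached 10 reads in control alone held 321 of the 372 lower loci and 1 of the 124 higher ones, a split that their entry through control fixed in large part. Without loci that reached 10 reads in a single library, of whichever genotype, 34 of 219 were higher and 33 lower. Of the 34 higher, 24 were short of 10 reads in control. Of the 33 lower, 30 were short of them in the single mutant. Entry thus still fixed much of this balance, and no support is drawn from it. Among the 104 loci with 10 reads or more in both libraries, 10 were higher and 3 lower. That requirement favoured loci high in the single mutant, since 10 reads were worth 0.42 RPM there and 0.30 in control. No support is drawn from this lean.

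Among the loci above 0 in both libraries, loci were ranked by log2(RPKM + 1). The 6 with the largest ratios of single mutant to control all spanned under 200 bp, where the added RPKM weighed least. The largest, chr3L:5493085-5493115 (31 bp), had 41 reads in the single mutant, none in the double mutant and 2 in control. The Osi18 neighbour described above came second on this scale but last of the 6 by RPM. By RPM chr3L:122550-122831 (282 bp), with 19 reads in the single mutant and 1 in control, ranked above it. chr3R:3035838-3035974 had 11 reads in the single mutant, 4 in the double mutant and 1 in control, and chr3LHet:1091474-1091645 had 12, 8 and 1. chr3L:12357778-12357872, 3424 bp from Ncc69, a sodium-potassium-chloride cotransporter gene, had 14, 2 and 2, and the remaining one belonged to a cluster near Pk61C taken up further on. All 6 were highest in the single mutant and low in both other libraries, apart from the 8 double mutant reads on 3LHet.

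At the other end, chr3R:4636366-4636624 (259 bp, 53 bp from CG9837) was deep only in control. It had 4.39 RPKM in the single mutant, 6.74 in the double mutant and 82.7 in control, from 7, 15 and 186 reads. Its RPM in the single mutant was 0.0530 of that in control (0.0210 to 0.111), and in the double mutant 0.0813 (0.0446 to 0.138). The row of CG9837 itself is a named gene and was not part of the set. The other 5 lowest loci had 1 read each in the single mutant and 16 to 28 in control, such as chr2R:17848466-17848533 with 1, 1 and 20 reads in the single mutant, the double mutant and control, and chr2R:511918-512166 with 1, 6 and 28.

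The double mutant stood to control much as the single mutant did in its counts, with control shared by both comparisons. Here 155 loci (18.7%) were at least 2-fold higher in the double mutant, beside 4.75% of all rows, and 354 (42.8%) were lower, beside 5.07%. The median log2 ratio was -0.62, against 0.06 over all rows and 0.03 over the longer unnamed rows, of which 89 were higher and 69 lower. The lower loci had medians of 1 read in the double mutant and 12 in control, and 350 of the 354 had 10 reads or more in control. The higher loci had medians of 13 reads in the double mutant and 2 in control. The loci that reached 10 reads in control alone held 332 of the 354 lower loci and none of the 155 higher ones. The 163 that reached them in the double mutant alone held 119 of the 155 higher loci. Entry through these libraries fixed both splits in large part. Without loci that reached 10 reads in a single library, 26 of 219 were higher and 18 lower. Of the 26 higher, 16 were short of 10 reads in control. Of the 18 lower, 12 were short of them in the double mutant, so entry fixed much of this balance too. Among 151 loci with 10 reads in both libraries 10 were higher and 6 lower, with a median of 0.01.

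**Figure D3:**
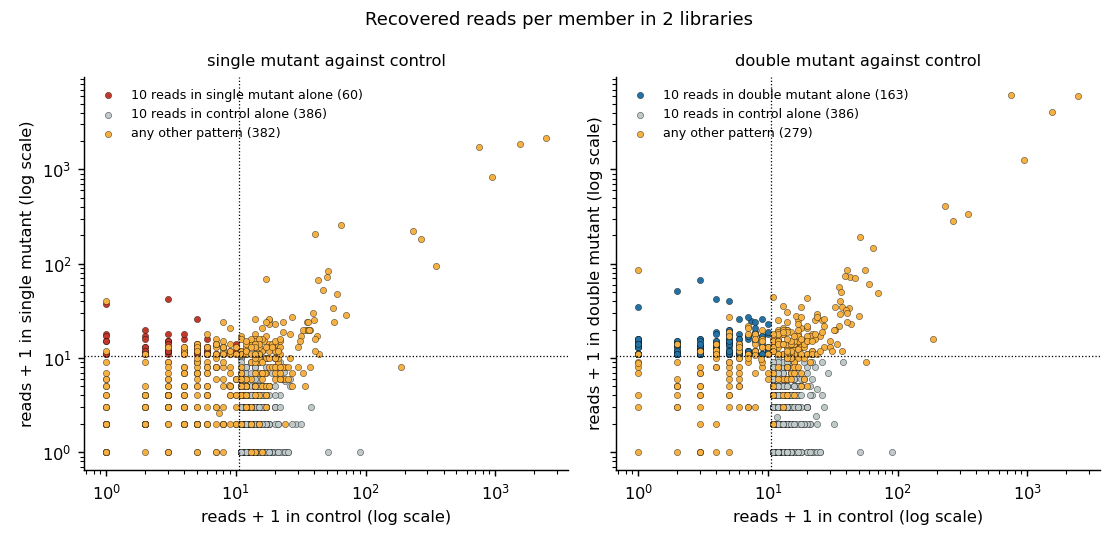
Recovered reads plus 1 (log scales) of each locus in the single mutant against control (left) and in the double mutant against control (right). Dotted lines mark the step at 10 reads. Colours show loci that reached it in the mutant of the panel alone, in control alone, or in any other pattern. The lower left corner holds loci that reached 10 reads in neither library of the panel. On the left these include the 163 loci of the double mutant alone, and on the right the 60 of the single mutant alone. The 386 grey loci that reached 10 reads in control alone lie below the horizontal line in both panels.

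On the scale log2(RPKM + 1), the largest ratio of double mutant to control was in heterochromatin. chr2RHet:2263112-2263322 had 9.52 RPKM in the single mutant, 56.2 in the double mutant and 1.68 in control, from 8, 66 and 2 reads. It reached 10 reads in the double mutant alone, so it entered the table through the library in which it was high, and no fold is drawn from it. Its neighbour chr2RHet:2262986-2263044 had 5, 13 and no reads, and chr2RHet:2271521-2271916, on the same sequence, had 8, 50 and 1. The first 2 of these lay 105135 and 105009 bp from the nearest named row, CG41242, and each of the 3 was highest in the double mutant and lowest in control. All 3 reached 10 reads in the double mutant alone, and by RPM chr2RHet:2271521-2271916 ranked above chr2RHet:2263112-2263322. chr3R:12673181-12673282, 2443 bp from iab-4, a microRNA gene of the bithorax complex, had 6 reads in the single mutant, 41 in the double mutant and 3 in control. chr3L:22408996-22409162 and chrX:20366607-20366748 had 12 and 10 reads in the double mutant and 1 each in control. These loci and the one near iab-4 also reached 10 reads in the double mutant alone. The 6 lowest ratios rested on a single double mutant read each, against 13 to 20 reads in control, the only library in which these loci reached 10. They included chr3R:14025599-14025676, 282 bp from Ssdp, a gene for a single-stranded DNA binding protein, with 1, 1 and 13 reads in the single mutant, the double mutant and control. chr2L:14370201-14370337 differed from these in having 6 reads in the single mutant.

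Between the mutants, the double mutant was at least 2-fold higher than the single mutant at 181 loci (21.9%), beside 6.02% of all rows, and lower at 142 (17.1%), beside 2.81%. The median log2 ratio was 0.00, against 0.04 over all rows and 0.16 over the longer unnamed rows. The higher loci had medians of 11 reads in the double mutant and 1 in the single mutant, and the lower ones 2 and 10. The 163 loci that reached 10 reads in the double mutant alone held 108 of the 181 higher loci. The 60 that reached them in the single mutant alone held 46 of the 142 lower ones. Entry through these libraries fixed both splits in large part. Counted in RPM with 1 read added, 193 loci were higher and 183 lower. Among the 106 loci with 10 reads or more in both mutants, 4 were higher and 6 lower. Here, too, 10 reads were worth more RPM in the single mutant, whose total was smaller.

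On the scale log2(RPKM + 1), the largest ratio of double to single mutant was at chr2L:93103-93317, 1434 bp from CG11376. It had 35 reads in the double mutant, 2 in the single mutant and 12 in control. chr3L:10283446-10283550 had 13 double mutant reads, 1 single mutant read and none in control, and chr3RHet:165355-165450 had 12, 1 and none. chr3L:820922-821109 had 16, 1 and 4, and chr2L:20953276-20953504 had 18, 1 and 3. In 5 of the 6 highest, control was under 10 reads as well. Among the 6 lowest, chr3L:10587636-10587806, 3569 bp from A2bp1, which encodes an RNA-binding splicing factor, had 1 read in the double mutant and 10 each in the single mutant and control.

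Loci with at least 50 reads in some library gave ratios that counting error blurred less. There were 26 of them, each chosen for having that depth in whichever library was highest, so their ratios are descriptions of single loci.

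The 26 loci differed in which library was high, and a first group was highest in the single mutant. chr2L:21657819-21658149 (331 bp, 602 bp from Cul-2, a cullin of ubiquitin ligases) had 66.5 RPKM in the single mutant, 19.5 in the double mutant and 9.20 in control, from 205, 84 and 40 reads. Its single mutant RPM was 7.22-fold that of control (5.13 to 10.4), and its double mutant RPM 2.12-fold (1.44 to 3.17). The adjacent chr2L:21657368-21657736 had 68, 24 and 16 reads in the same order of libraries, a single mutant ratio of 5.99 (3.44 to 11.1). The named row of Cul-2 had 36.9 RPKM in the single mutant, 27.3 in the double mutant and 23.3 in control, the same order with smaller differences. chr3L:2273736-2273829, 967 bp from CG32302, had 254, 147 and 64 reads, 5.59-fold control in the single mutant (4.24 to 7.48) and 2.32-fold in the double mutant (1.72 to 3.16). chr2RHet:96041-96412 had 71, 27 and 49.

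The second group was highest in the double mutant. Near CG10830, chr3R:16716415-16716576 had 83 reads in the single mutant, 191 in the double mutant and 51 in control, and chr3R:16717374-16717486 had 29, 74 and 38. chr3R:21321856-21322170, 973 bp from CG33494, had 40 and 84 reads in the single and double mutant and was listed at 0 in control, where 3 reads were worth 0.78 RPKM at this span. The third group was low in one or both mutants. chr3R:13450499-13450595, 394 bp from AttD, an antimicrobial peptide gene, had 93 reads in the single mutant, 334 in the double mutant and 347 in control, a single mutant ratio of 0.378 (0.297 to 0.476). chr3R:2708417-2708506, 13468 bp from the homeotic gene Antp, had 23, 8 and 56, and its double mutant ratio to control was 0.144 (0.0593 to 0.304). chr3L:22436-22616, 330 bp from mthl8, a methuselah-like receptor gene, had 89 reads in control and was listed at 0 in both mutants, as was chr3L:2833889-2833930 with 50 control reads. An exact 0 can also be a failed estimate, so no fold or bound against control is drawn from these loci. Among the rest, chr3L:769370-769637, 15865 bp from emc, a helix-loop-helix repressor gene, was level, with 184, 282 and 265 reads.

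Markers of other tissues moved between the same libraries. All 4 salivary gland markers were found and summed to 635 RPKM in the single mutant, 87.5 in the double mutant and 159 in control. All 5 fat body markers were found and summed to 181, 1114 and 518 RPKM, and the 3 hemocyte markers to 57.9, 120 and 42.4, with none of these at 0. The 3 gut markers summed to 0.869, 27.3 and 68.6, with 1 of them at 0 in the single mutant. Single markers did not all follow their sums, since Sgs3 was highest in control at 6.89 RPKM, against 5.40 in the single mutant. Neuroblast markers (5 of 5 found) summed to 92.6, 87.5 and 78.4 RPKM, although wor, dpn and ase were lower in the double mutant than in control. Neuron markers (4 of 6 found) summed to 43.2, 69.7 and 37.5, glia markers (2 of 3) to 39.7, 55.7 and 43.3 and muscle markers (2 of 2) to 8.46, 9.39 and 17.4. Their part in the levels of the unnamed loci was not tested, and in RNA of whole brains a change in the share of a cell type and a change in RNA per cell cannot be told apart. BRWD3 itself had 43.2 RPKM in the single mutant, 47.8 in the double mutant and 29.1 in control, and yemalpha, the table's name for yem, had 8.04, 15.6 and 11.9, so BRWD3 was lowest in control and yemalpha highest in the double mutant. The unnamed locus nearest BRWD3, chr3R:20109683-20109837, was 34903 bp away and had 13, 18 and 11 reads. The one nearest yemalpha was 527611 bp away, at chr3R:24414186-24414501, with 2, 3 and 10.

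An entry of 0 was more frequent in the mutants. The single mutant listed 147 loci at 0 (17.8%), the double mutant 140 (16.9%) and control 32 (3.86%). Over all rows of the table the shares were 9.74%, 8.10% and 5.996%, in the same order of libraries. Among the 941 longer unnamed rows the shares were 3.29%, 1.70% and 1.06%, and among the 194 named rows under 400 bp they were 52.6%, 42.3% and 44.8%. A count of 0 allows up to 3 reads, which at a span of 100 bp corresponded to 45.6 RPKM in the single mutant, 32.6 in the double mutant and 31.7 in control, and at 300 bp to 1.25, 0.893 and 0.884. An exact 0 can also be a failed estimate, and no fold of a single locus is given against a library at 0.

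By pattern, 595 loci were above 0 in all 3 libraries and 80 were at 0 in both mutants alone. Since all but 2 loci reached 10 reads somewhere, a locus at 0 in both mutants had to reach them in control, and no support is drawn from it. Their median was 12 control reads. The deepest were chr3L:22436-22616 and chr3L:2833889-2833930, described above, and the highest by RPKM were chr3RHet:2515050-2515072, chr3R:7012221-7012244 and chr3L:17453327-17453351, of only 23 to 25 bp and with 11, 10 and 10 control reads. Another 62 loci were at 0 in the single mutant alone and 59 in the double mutant alone, and of these 53 in each case had 10 reads or more in control. They included chr2LHet:187322-187369 with 0, 1 and 13 reads in the single mutant, the double mutant and control, chr3L:22439381-22439477 with 0, 11 and 6, chr3R:19194185-19194291 with 0, 1 and 14, chr2L:22034670-22034693 with 3, 0 and 21 and chr2L:22470939-22470984 with 1, 0 and 11.

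Zeros in control were fewer and went mostly with reads in the double mutant. These loci, too, had to reach 10 reads in another library, here a mutant. The total was 3.31e+07 reads in the double mutant and 2.37e+07 in the single mutant, so no support is drawn from this lean. Of the 26 loci at 0 in control alone, 20 had 10 reads or more in the double mutant and 8 in the single mutant, and their medians were 11 reads in the double mutant and 4 in the single mutant. The deepest by reads was chr3R:21321856-21322170, described above, and the highest by RPKM, chr2L:22225384-22225449, had 6 reads in the single mutant (378 RPKM) and 34 in the double mutant (1533 RPKM). The 5 loci at 0 in the single mutant and control, which could enter only through the double mutant, had 10 to 14 reads there, among them chr2RHet:1639048-1639196 with 14, chr3R:27840905-27841053 with 10 and chr3L:21710729-21710878 with 10. The single locus at 0 in the double mutant and control, chr3R:4461015-4461064, had 10 reads in the single mutant.

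Levels and patterns differed with span. The 79 loci under 100 bp had median values of 17.5 RPKM in the single mutant, 0 in the double mutant and 764 in control, which were 1, 0 and 11 reads. The 307 loci of 300 bp or more had medians of 1.58, 2.00 and 2.48 RPKM, which were 6, 10 and 12 reads. Control alone reached 10 reads at 55 of the 79 loci under 100 bp, 106 of the 167 from 100 bp to under 200 bp, 124 of the 275 from 200 bp to under 300 bp and 101 of the 307 longer ones. The share in which all 3 libraries reached 10 reads went the other way, at 7, 12, 11 and 42 loci of the same classes. With RPM and 1 read added, the size of a ratio against a library at 0 did not depend on span. On this scale the median log2 ratio of single mutant to control was -2.31, -1.38, -0.83 and -0.38 from the shortest class to the longest. That of double mutant to control was -3.45, -1.86, -0.63 and -0.34. Zeros still set some of these medians. The double mutant listed 46 of the 79 shortest loci at 0, and -3.45 was the value of 0 reads there against 10 in control. Loci that reached 10 reads in control alone were most frequent in the shortest class. Their entry through control fixed the direction of their ratios in large part, so no support is drawn from the trend with span. Of the loci just inside the limit, chr2L:17902083-17902481, 58475 bp from CadN2, an N-cadherin gene, and chr3L:19928870-19929268, 2838 bp from RhoGDI, had 1.29, 1.54 and 2.90 RPKM and 1.93, 1.23 and 2.13 RPKM in the single mutant, the double mutant and control. Just outside it at 400 bp, chr3L:20745072-20745471 and chr3L:20750884-20751283 had 2.57, 0.612 and 2.27 RPKM and 1.07, 0.612 and 2.58 RPKM.

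The loci were spread over 10 sequences, with 250 (30.2%) on 3L, where 19.5% of the named rows and 31.4% of the longer unnamed rows lay. Set against the named rows, 3L held 9.52 unnamed short loci per 100, chromosome 4 held 14.3 (12 loci), X 6.41 (137), 2R 4.73 (126), 2L 4.51 (112) and 3R 4.37 (143). The heterochromatin sequences 2LHet, 2RHet, 3LHet and 3RHet held 3, 17, 12 and 16 loci, or 5.80% of the set. With XHet and YHet counted too, heterochromatin sequences held 0.542% of the named rows and 4.78% of the longer unnamed rows. XHet and YHet had 9 named rows each and none of these loci. None lay on the mitochondrial genome or on the unplaced sequences.

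**Figure D4:**
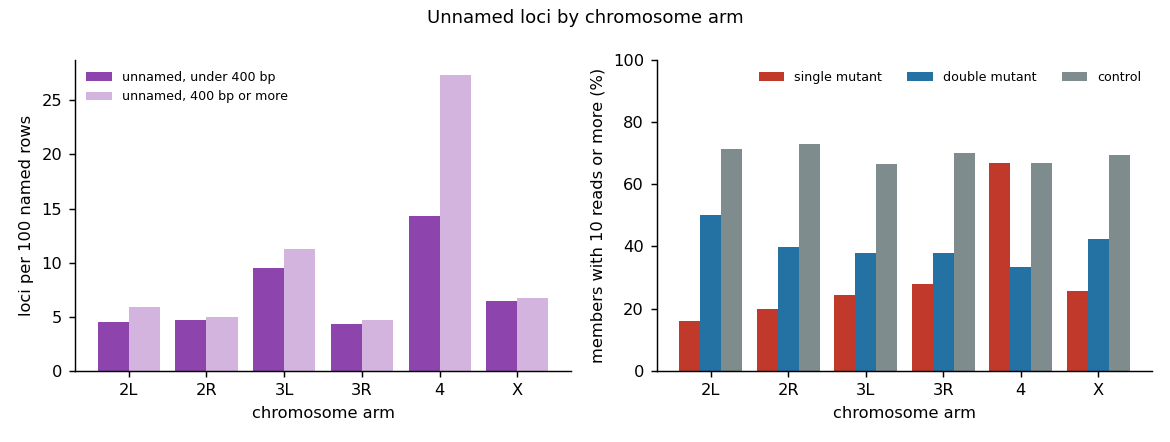
Left, number of unnamed loci under 400 bp (dark) and of 400 bp or more (light) per 100 named rows on each chromosome arm. Right, percentage of the short loci with 10 reads or more in the single mutant, double mutant and control. 3L and chromosome 4 (12 loci) have the highest bars on the left, and on the right control is highest on each arm except chromosome 4, where it equals the single mutant.

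Across the large arms the libraries kept a similar order. Counts at 10 reads or more were again not scaled to the totals, of which that of the single mutant was the smallest. On 2L, 2R, 3L, 3R and X, between 16.1% (2L) and 28.0% (3R) of the loci had 10 reads or more in the single mutant, 37.8% (3R) up to an equal split (56 of 112, 2L) in the double mutant and 66.4% (3L) to 73.0% (2R) in control. Entries of 0 made up 13.9% (X) to 21.7% (3R) in the single mutant, 14.8% (3L) to 22.4% (3R) in the double mutant and 0.730% (X) to 6.25% (2L) in control. The median log2 ratio of single mutant to control lay between -1.05 (2R) and -0.50 (X), and that of double mutant to control between -0.89 (3R) and -0.60 (X). On 3L, 40 loci (16%) were higher and 116 (46.4%) lower in the single mutant than in control, beside 3.88% and 7.05% of all rows of the table. In the double mutant 51 (20.4%) were higher and 112 (44.8%) lower, beside 4.75% and 5.07%. Of the 250 loci on 3L, 121 reached 10 reads in control alone. Their entry fixed the direction in large part, so no support is drawn from these counts.

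Chromosome 4 and the heterochromatin sequences had other values, on few loci. On chromosome 4, 8 of 12 loci had 10 reads or more in the single mutant, 4 in the double mutant and 8 in control, and the median ratio of single mutant to control was 0.04. On 2RHet, 15 of 17 loci reached 10 reads in the double mutant, against 3 in the single mutant and 8 in control. There 8 loci were higher and 2 lower in the double mutant than in control, with a median log2 ratio of 0.55, beside 13 and 3 of all 49 rows on that sequence that passed the minimum. Against the single mutant 7 were higher and 2 lower, beside 8 and 2 of all 49 rows. The 49 rows include the 17 loci, as the 137 rows below include the 48, so neither is a separate comparison. Of the 17 loci, 7 reached 10 reads in the double mutant alone and entered through it, so no support is drawn from these counts. Over all 48 heterochromatin loci, 15 were higher and 14 lower in the double mutant than in control, beside 23 and 19 of all 137 rows there, and 16 were higher and 5 lower than in the single mutant, beside 20 and 7. Reads in repeated sequence can match several places, and how such reads were counted was not given in the sources used here.

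None of the 828 loci overlapped a named row, whereas 266 of the 941 longer unnamed rows (28.3%) did. The distance to the nearest named row had a median of 3226.5 bp and ran from 5 to 182845 bp, and 175 loci (21.1%) lay within 1000 bp of one. Those 175 had medians of 5 reads in the single mutant, 8.84 in the double mutant and 11 in control, and the 653 farther away had 3, 6 and 11. Against control, 35 of the near loci (20%) were higher and 67 (38.3%) lower in the single mutant, beside 3.88% and 7.05% of all rows. Of the farther ones, 89 (13.6%) were higher and 305 (46.7%) lower. Of all 372 lower loci, 321 had entered the table through control alone, which fixed their direction in large part. No link between distance and direction is therefore drawn from these counts.

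The ratios of loci close to each other were compared. Gaps of at most 1000 bp joined 247 loci (29.8%) into 89 pairs, 14 groups of 3, 5 of 4 and 1 of 7. Over the 138 neighbouring couples within such a gap, the log2 read ratios of single mutant to control had Pearson's r 0.46 and Spearman's rho 0.41 across loci. Over the 680 neighbours farther apart they were 0.07 and 0.07. The values for double mutant to control were 0.41 and 0.43 within 1000 bp and 0.13 and 0.13 beyond it. For double to single mutant they were 0.31 and 0.23 within 1000 bp and 0.10 and 0.09 beyond it, and 52.9% of the close couples shared a direction, beside 52.6% of the others. All of these points share the same libraries and mostly low reads, loci are not independent replicates, and whether close loci are pieces of 1 transcript was not tested, so the values are descriptive. Between a locus and a named row within 1000 bp (151 couples), r was 0.30 and rho 0.25 for single mutant to control, and r was 0.15 and rho 0.03 for double mutant to control.

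The group of 7 lay at chr3L:120151-123970, 5481 bp from Pk61C, which encodes the kinase PDK1 of insulin signalling, and was highest in the single mutant at each of its 7 loci. From the first to the last, the reads in the single mutant, the double mutant and control were 25, 3 and 4, then 10, 1 and 2, then 16, 2 and 1, then 11, 10 and 0, then 15, 10 and 6, then 19, 5 and 1, and finally 10, 2 and 0. Together they made 106 reads in the single mutant, 33 in the double mutant and 14 in control, or 4.48, 0.998 and 0.420 RPM. All 7 reached 10 reads in the single mutant and 5 of them only there, so they entered the table through the library in which they were high, and no fold is drawn from the sums. The named row of Pk61C had 63.7 RPKM in the single mutant, 67.3 in the double mutant and 47.7 in control. The single mutant library was also the one with the highest sum of the 4 salivary gland markers, and whether these 7 loci go with them was not tested.

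**Figure D5:**
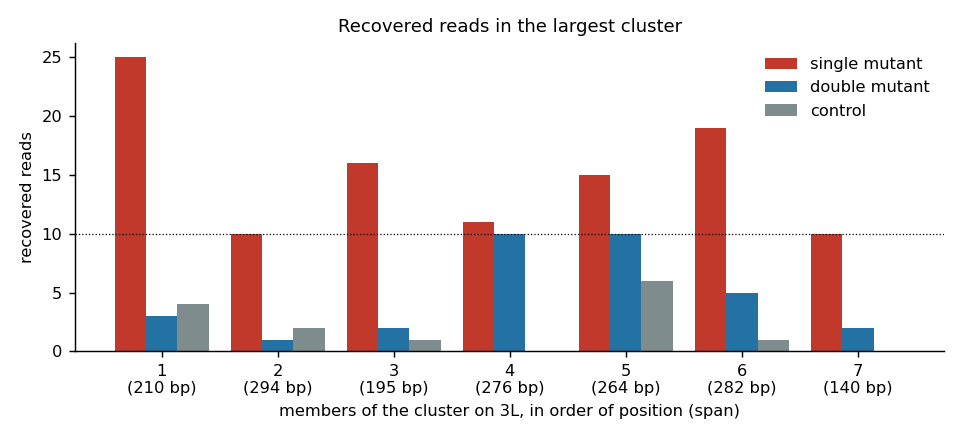
Recovered reads of the 7 loci of the group on 3L in order of position, with the span of each in bp, in the single mutant, double mutant and control. The dotted line marks 10 reads, which the single mutant reached at all 7 loci, the double mutant at 2 and control at none.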

How the data were processed

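RNA was sequenced from 3 libraries after TRIzol extraction, DNase I treatment, Ribo-Zero Gold depletion and Ion Total RNA-Seq library preparation, per the labels' protocols. Per the submitters' processing notes the authors used FastQC, Trimmomatic, TopHat2 2.0.9, Cufflinks 2.0.2 and the build dm3. Their settings, the strand handling and the treatment of multiply matching reads were not stated in any source at hand. The authors deposited RPKM per assembled locus, 1 column per genotype.

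Loci were selected by name and span, and the set, the marker lists and the loci named in the text were chosen with earlier results of these data known. Named loci were the 8 highest means, the 6 highest and 6 lowest ratios per comparison above 0 in both libraries, the 3 highest per pattern of zeros, those at the span limit and the largest group. Those with 50 reads or more, and the neighbours of BRWD3 and yemalpha, were chosen after their values were seen. Ratios were log2((a + 1)/(b + 1)) of RPKM over rows with at least 1 RPKM in at least 1 library.

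Reads were recovered by dividing each RPKM by the value of 1 read at its span, with the fragment distribution of 200 ± 80 bases and a transcript length 1 base below the span. Values that were not whole are printed rounded. Recovery was tested on reads simulated with the same fragment distribution and length rule, so it checked the calculation and not these assumptions. Ratios of RPM (reads scaled to library size) carry exact binomial 95% intervals. No sequence of the dm3 build was used here. Python 3.11.15, numpy 2.4.6, pandas 2.3.3 and scipy 1.17.1 were used.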

Additional observations from a re-analysis of the deposited data

How the results depend on the processing

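Shares of loci changed most with the pseudocount, the fold and the reads required. In the single mutant against control, 6.88% of the loci were higher with 5 RPKM added and 5.19% at 4-fold, in place of 15%, and 25% and 23.2% were lower, in place of 44.9%. In the double mutant against control, 8.57% and 7.25% were higher, in place of 18.7%, and 24.4% and 24.0% lower, in place of 42.8%. In the double against the single mutant, 7.25% and 7.37% were higher, in place of 21.9%, and 7.37% and 5.68% lower, in place of 17.1%. With values under 1 RPKM counted as 0, zeros numbered 273 in the single mutant, 245 in the double mutant and 98 in control, in place of 147, 140 and 32.

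Read-based alternatives were chosen after seeing the data. The set without loci of any library alone still holds loci short of 10 reads in a compared library. Entry fixed many of their directions too. A requirement of 10 reads in both libraries asked for more RPM in the single mutant, whose total was smaller. It thus favoured loci high in the single mutant. Leaving out loci that reached 10 reads in one named library alone removes loci by the outcome, so the shift it gives is fixed by the choice. Without those of control alone, 27.8% of 442 were higher and 11.5% lower in the single mutant against control (median log2 0.33), and 35.1% higher and 4.98% lower in the double mutant against control (median 0.57). Without those of the single mutant alone, 9.24% of 768 were higher in the single mutant against control. Without those of the double mutant alone, 5.41% of 665 were higher in the double mutant against control and 10.98% against the single mutant. Without those of any library alone (219 loci left), 15.1% were lower in the single mutant against control, 11.9% higher and 8.22% lower in the double mutant against control (median 0.0113) and 13.7% higher in the double against the single mutant. With 10 reads in both libraries, 9.62% of 104 were higher and 2.88% lower in the single mutant against control (median 0.27), 6.62% of 151 higher and 3.97% lower in the double mutant against control (median 0.0094), and 3.77% of 106 higher and 5.66% lower in the double against the single mutant.

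Over all alternatives, 119 values stayed within 1.5 times the reported share or count, or within the interval of the reported median, 53 moved further and 5 changed sign. The median of the single mutant against control, -0.76, was -1.29 at a span limit of 300 bp, -1.12 with a minimum of 5 RPKM and -0.33 for loci above 0 in all 3 libraries. No locus overlaps a named row. No paired analysis was possible because each genotype had 1 library. Few reads limit most loci, and the number of estimates behind the control column is unknown.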
